A study of Mus musculus with 2 samples.

Results

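The genes examined here run necroptosis and pyroptosis, the forms of programmed cell death in which a protein pore or a rupture opens the plasma membrane. They are Zbp1, Ripk1, Ripk3, Mlkl, Casp1, Casp4, Casp8 and Gsdmd, taken by symbol from the deposited gene table, in which all 8 were found among 54680 loci. Each was compared between CT26shSetdb1 and CT26shCtrl. CT26 is a mouse colon cancer cell line. In CT26shSetdb1 cells, Setdb1, the gene of an enzyme that methylates histone H3 at lysine 9, was knocked down with a short hairpin RNA delivered by lentivirus, and the labels describe them as differentiated. CT26shCtrl cells, labelled wild type, carried the lentivirus with the empty knockdown vector, so both groups had been infected. Both were grown in RPMI medium with 10% serum for 6 days, and each group is 1 library from 1 cell line. The differences below therefore have no replicate check and describe these 2 libraries.

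In necroptosis, death receptors, Toll-like receptors that signal through TRIF, or the nucleic acid sensor ZBP1 bring together kinases through a shared segment, the RIP homotypic interaction motif. RIPK3 then phosphorylates MLKL, the protein that breaks the membrane, and caspase-8 restrains the process by cleaving RIPK1 and RIPK3. In pyroptosis, an inflammasome or cytosolic lipopolysaccharide activates caspase-1 or mouse caspase-11, the product of Casp4, which cut gasdermin D to free its pore-forming part. Several of these genes are known to be induced by interferon.

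Setdb1 served as the check of the labels. It had 10.4 FPKM in CT26shCtrl and 2.47 FPKM in CT26shSetdb1, 23.7% of the control level. FPKM here is fragments scaled by gene model length and by 1 depth common to both libraries. The library totals recovered from the table were 18421604 reads in CT26shCtrl and 19045830 in CT26shSetdb1, a ratio of 1.03. Differences in FPKM are not corrected for this ratio, while read ratios are. Of the 5 epithelial markers examined, 2 reached 1 FPKM and both were higher in CT26shSetdb1. Krt18 had 37.7 FPKM in CT26shCtrl and 90.0 FPKM in CT26shSetdb1, and Krt19 had 0.0288 FPKM (1 read) and 1.53 FPKM (53 reads), so it reached 1 FPKM in the knockdown library alone. Epcam and Cdh1 had 0 reads in both libraries, and all 4 colon markers were below 1 FPKM. The 95% intervals below cover counting error alone, because each group is 1 library. PCR copies of a molecule are counted as separate reads, so the intervals may be too narrow even for that.

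Zbp1 and Mlkl showed the largest differences among the 8 genes, and Ripk3, the kinase that links them, had no read in either library. Of the 8, 6 reached 1 FPKM in at least 1 library. The 2-fold threshold used throughout applies to (FPKM + 1), a scale that understates differences of genes at low levels. Zbp1 was the 1 gene past it, while 6.81% of the 10671 genes tested were past it in the same direction. None was at least 2-fold lower, against 4.85% of all genes tested. The median log2 ratio of (FPKM + 1), CT26shSetdb1 over CT26shCtrl, was 0.37 over the 6 genes and -0.00039 over all genes tested. Zbp1 passed the level filter through the knockdown library alone. Over all 8 genes, with no filter, the median was 0.23. All 6 had a log2 ratio above 0, as did 49.6% of all genes tested. An exact binomial test on the reads, which compares these libraries and not the conditions, called Zbp1, Mlkl, Casp8 and Gsdmd higher and none lower. It called 34.7% of all genes tested higher and 40.2% lower.

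**Figure D1:**
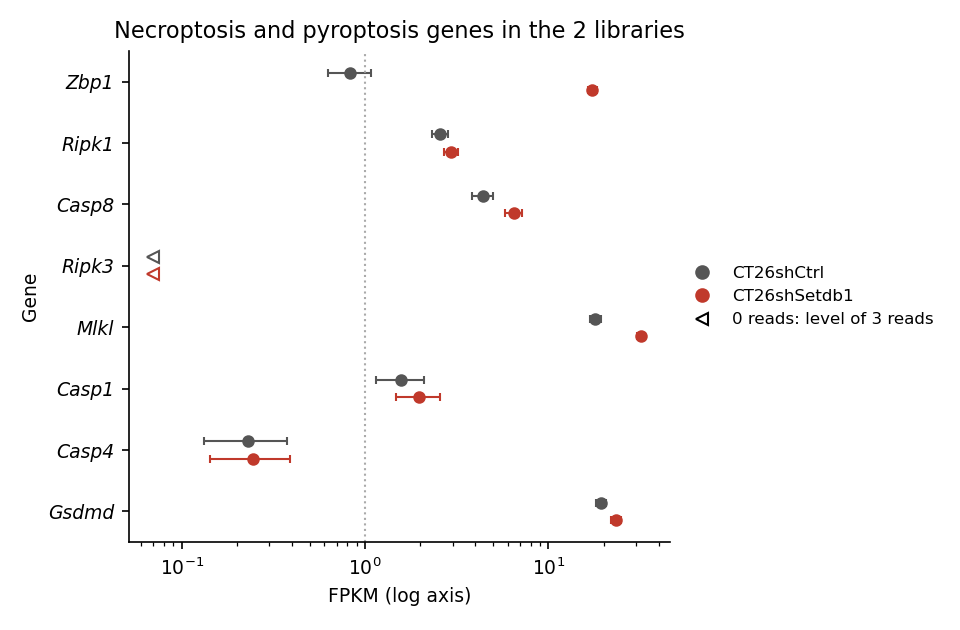
Level of each gene in FPKM on a log axis in CT26shCtrl (grey) and CT26shSetdb1 (red). Bars are 95% Poisson counting intervals of 1 library, open triangles mark the level that 3 reads would give for a gene with 0 reads, and the dotted line is 1 FPKM. Zbp1 moves from 0.832 to 17.4 FPKM, and Ripk3 has 0 reads in both.

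Zbp1 (ENSMUSG00000027514) encodes the sensor of Z-form DNA and RNA that recruits RIPK3. The gene lies on the minus strand at chr2:173206612-173218923 in GRCm38, and its annotated exons share no base with another gene. It had 0.832 FPKM (55 reads) in CT26shCtrl and 17.4 FPKM (1148 reads) in CT26shSetdb1. The knockdown library was far above the control library, a 20.9-fold difference in FPKM. The read ratio over library totals was 20.2, with a counting interval of 15.4 to 27.0, and on the log2(FPKM + 1) scale the difference was 3.33. By log2 ratio Zbp1 was at rank 19 of the 10671 genes tested. Of the 2077 genes with a mean level within 1.5-fold of its own, 99.9% had a lower ratio.

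Adar was read beside Zbp1, because its product ADAR1 edits double-stranded RNA and its long form binds Z-form RNA as ZBP1 does. It had 11.3 FPKM in CT26shCtrl and 29.8 FPKM in CT26shSetdb1, a log2 ratio of 1.33. Its read ratio was 2.56 (2.42 to 2.71). The sensor and the editing enzyme were thus both past 2-fold, and both were higher in the knockdown library. Of the annotated exon bases of Adar, 16.8% are shared with Chrnb2.

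Ripk1 (ENSMUSG00000021408), the kinase and scaffold of the death receptor complexes, lies on the plus strand at chr13:34002363-34037147. It had 2.55 FPKM (399 reads) in CT26shCtrl and 2.94 FPKM (460 reads) in CT26shSetdb1. The log2 ratio was 0.15. The read ratio of 1.12 had an interval of 0.973 to 1.28, which includes 1. A difference was not detectable at this depth. Of the annotated exon bases, 9.01% are shared with Serpinb6a and the pseudogene Gm17084, and reads there cannot be assigned to 1 gene without strand.

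Casp8 (ENSMUSG00000026029) encodes the protease that starts receptor-driven apoptosis and holds necroptosis back. It lies on the plus strand at chr1:58795374-58847503. Its level was 4.39 FPKM (238 reads) in CT26shCtrl and 6.48 FPKM (351 reads) in CT26shSetdb1. The knockdown library was higher, with a read ratio of 1.43 (1.21 to 1.69) whose interval excluded 1. The log2 ratio of 0.47 was short of 2-fold. The pseudogene Gm20257, which shares the protein match of Casp8 in the authors' table, had 16 reads and 9 reads. Cflar, which encodes the caspase-8 relative and regulator c-FLIP and lies 36490 bases before Casp8, was at 5.03 and 5.23 FPKM, with a read ratio of 1.01 (0.928 to 1.09).

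Ripk3 (ENSMUSG00000022221) encodes the kinase that phosphorylates MLKL. It lies on the minus strand at chr14:55784995-55788865, and none of its exon bases is shared with another annotated gene. It had 0 reads in CT26shCtrl and 0 reads in CT26shSetdb1, which at this depth and gene length allows up to 0.0699 FPKM (3 reads) in each. No Ripk3 transcript was detectable in either library. Of the 22046 protein-coding loci in the table, 8285 (37.6%) likewise had 0 reads in both.

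Mlkl (ENSMUSG00000012519), which encodes the membrane-breaking protein of necroptosis, lies on the minus strand at chr8:111311797-111338177. It had 18.1 FPKM (779 reads) in CT26shCtrl and 32.1 FPKM (1384 reads) in CT26shSetdb1. This was a 1.78-fold difference in FPKM, higher in the knockdown library, and the counting interval of the read ratio excluded 1. The read ratio was 1.72 (1.57 to 1.88) and the log2 ratio 0.80, at rank 1159 of the genes tested, with 89.1% of them lower. In FPKM, Mlkl was 21.7 times the level of Zbp1 in CT26shCtrl and 1.85 times in CT26shSetdb1.

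**Figure D2:**
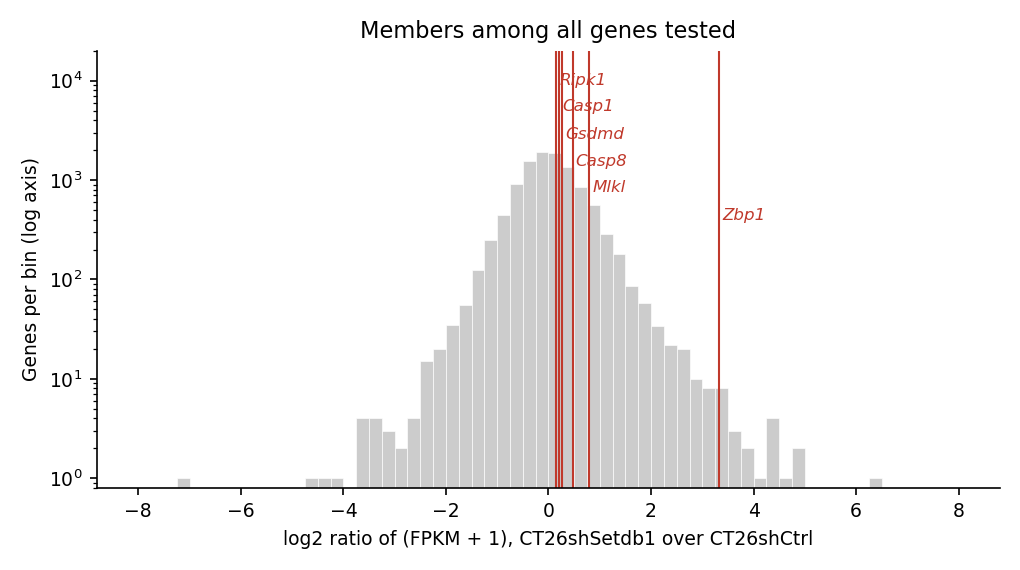
Number of genes per bin of log2 ratio (log axis), CT26shSetdb1 over CT26shCtrl, for the 10671 genes tested, with red lines at the 6 members that reached 1 FPKM. Zbp1, at 3.33, lies in the right tail, and the other 5 lie between 0.15 and 0.80.

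RefSeq promoter windows of 300 bases, in GRCm38.p6, were matched for 6 of the 8 genes, as 8 windows. Zbp1 and Gsdmd had no window, so neither promoter was searched. The windows of Ripk3 and Mlkl are printed because these genes act at successive steps and 1 had no read while the other was expressed, with CpG dinucleotides, the sites of DNA methylation, in capitals. The second Ripk1 window is printed because it was the 1 window of the 8 with a match to the interferon motifs searched, which are in capitals there.
Ripk3 promoter, chr14:55788808-55789107, minus strand: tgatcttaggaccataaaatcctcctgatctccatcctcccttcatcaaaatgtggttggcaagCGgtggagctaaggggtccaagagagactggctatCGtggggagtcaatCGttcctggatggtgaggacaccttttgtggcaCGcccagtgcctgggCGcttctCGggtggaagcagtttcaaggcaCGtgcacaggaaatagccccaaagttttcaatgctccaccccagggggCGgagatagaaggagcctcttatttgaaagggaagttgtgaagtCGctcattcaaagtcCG
Mlkl promoter, chr8:111338156-111338455, minus strand: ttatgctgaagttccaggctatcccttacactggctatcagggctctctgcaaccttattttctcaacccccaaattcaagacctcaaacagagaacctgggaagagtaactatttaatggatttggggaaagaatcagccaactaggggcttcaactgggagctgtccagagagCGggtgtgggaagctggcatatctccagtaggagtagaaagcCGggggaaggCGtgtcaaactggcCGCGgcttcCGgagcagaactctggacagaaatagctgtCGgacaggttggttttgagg
Ripk1 second promoter, chr13:34002624-34002923, plus strand: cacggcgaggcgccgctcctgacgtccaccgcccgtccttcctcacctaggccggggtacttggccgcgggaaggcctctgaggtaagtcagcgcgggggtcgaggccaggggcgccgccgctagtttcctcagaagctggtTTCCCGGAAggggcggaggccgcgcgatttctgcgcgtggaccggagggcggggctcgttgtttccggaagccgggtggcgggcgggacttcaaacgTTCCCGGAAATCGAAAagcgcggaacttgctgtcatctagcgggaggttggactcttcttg
The Ripk3 window holds 10 CpG dinucleotides and the Mlkl window 7, where the median over 32851 mouse promoter windows was 7. Methylation was not measured, and whether CpG number bears on the absence of Ripk3 reads was not tested. The windows of Casp1, Casp4 and Casp8 hold 3 to 5, and those of Ripk1 hold 22 and 36.

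Motifs were searched on both strands of these windows. The core of the interferon-stimulated response element, GAAA and GAAA with any 2 bases between them, occurs in 3.44% of all promoter windows, and the gamma-activated site bound by STAT dimers, TTCNNNGAA, in 8.30%. The second Ripk1 window holds 1 match to the first, from base 246, and 2 matches to the second, from bases 143 and 240, counted from the 5′ end of the window. The match from base 240 overlaps the one from base 246. The other 7 windows, those of Mlkl and Casp8 among them, hold neither run of letters. The Casp8 window, chr1:58802252-58802551, lies inside the gene model, so the start of that model was not searched. The second Ripk1 window, with the matches, also lies inside its gene model. The first Ripk1 window, chr13:34002113-34002412, covers the start of that model and holds no match. A match describes letters and not binding.

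Among the genes of pyroptosis none passed 2-fold. Gsdmd (ENSMUSG00000022575) encodes gasdermin D, whose freed N-terminal part forms the pore, and lies on the plus strand at chr15:75862327-75867408. It had 19.4 FPKM (862 reads) in CT26shCtrl and 23.4 FPKM (1044 reads) in CT26shSetdb1. The knockdown library was slightly higher, at 0.26 on the log2 scale and 1.17 (1.07 to 1.28) by reads. Of all genes tested, 68.3% had a lower ratio.

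Casp1 (ENSMUSG00000025888), the caspase that inflammasomes activate, lies on the plus strand at chr9:5298517-5307265. It had 1.57 FPKM (44 reads) in CT26shCtrl and 1.96 FPKM (55 reads) in CT26shSetdb1, a log2 ratio of 0.21. The read ratio of 1.21 had an interval of 0.799 to 1.84, so these reads do not separate the libraries. Casp4 (ENSMUSG00000033538), which encodes the lipopolysaccharide-binding caspase-11, starts 1563 bases after Casp1, at chr9:5308828-5336783. It was below 1 FPKM in both libraries, at 0.230 FPKM (16 reads) and 0.245 FPKM (17 reads). Its read ratio was 1.03 (0.488 to 2.17). A change of Casp1 or Casp4 was not detectable at this depth, and Gsdmd was at 12.3 times the FPKM of Casp1 in CT26shCtrl and 12.0 times in CT26shSetdb1.

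Ordered by FPKM, the CT26shCtrl library ran from Gsdmd and Mlkl, whose counting intervals overlapped (18.1 to 20.7 and 16.8 to 19.4 FPKM), through Casp8, Ripk1, Casp1, Zbp1 and Casp4 to Ripk3 at 0. In CT26shSetdb1 the order was Mlkl, Gsdmd, Zbp1, Casp8, Ripk1, Casp1, Casp4 and Ripk3, and the intervals of neighbours with reads did not overlap. Zbp1 moved from the third lowest place to the third highest.

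The other genes of these pathways were read from 9 lists with 96 genes, of which 64 reached 1 FPKM. In CT26shSetdb1, 6 of the 64 were past 2-fold upwards and 1 downwards, with a median log2 ratio of 0.05. These shares stand beside 6.81% and 4.85% of all genes tested. Traf5, 1 of the 6, passed the level filter through the knockdown library alone.

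Upstream of the kinases, Ticam1 encodes TRIF, an adaptor of Toll-like receptors that carries the same interaction motif as ZBP1. It had 8.51 FPKM in CT26shCtrl and 21.6 FPKM in CT26shSetdb1 (log2 ratio 1.25). It was the 1 gene past 2-fold of 6 at 1 FPKM in the list of receptors and ligands, which also holds this adaptor. None of the receptors at 1 FPKM passed 2-fold, and Tlr4 was lowest of them at -0.16. Below 1 FPKM in both libraries, Fas had 3 and 13 reads, a read ratio of 4.19 (1.15 to 22.9). Tlr3, likewise below 1 FPKM, had 81 and 58 reads, a read ratio of 0.693 (0.486 to 0.982). Fas and Tlr3 were named after their values were seen. Tnfrsf1a, the main tumour necrosis factor receptor and named after its values were seen, was at 70.5 and 100 FPKM. The ligand genes Tnf, Fasl and Tnfsf10, also named after their values were seen, had 0 reads in both libraries.

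Of 14 adaptors and ubiquitin enzymes at 1 FPKM, 3 passed 2-fold upwards and 0 downwards, with a median log2 ratio of 0.08. Tradd, the adaptor that binds tumour necrosis factor receptor 1, had 26.4 FPKM in CT26shCtrl and 58.8 FPKM in CT26shSetdb1 (log2 ratio 1.13). Rnf31, the catalytic subunit of the linear ubiquitin ligase, had 9.22 and 23.7 FPKM (log2 ratio 1.27). Traf5, a ubiquitin ligase family adaptor, had 0.561 and 3.06 FPKM (log2 ratio 1.38), so it reached 1 FPKM in the knockdown library alone. Spata2, which links the deubiquitinase CYLD to that ligase, was lowest of the list at -0.23. The list was thus uneven, with 3 members past 2-fold and the other subunits of the linear ubiquitin ligase near 0, Rbck1 at -0.14 and Sharpin at 0.07, both named after their values were seen.

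Of the kinases and partners that hold RIPK1 in check, 10 reached 1 FPKM. Of these, 7 had a log2 ratio below 0 (50% of all genes tested did) and 2 above 0, and the median was -0.44. Tab2, a partner of the kinase TAK1, had 11.5 FPKM in CT26shCtrl and 4.80 FPKM in CT26shSetdb1, a log2 ratio of -1.10 and the 1 gene of the list past 2-fold on the (FPKM + 1) scale. Ikbke, a kinase of the TBK1 family, was highest, at 1.30 and 3.02 FPKM (log2 ratio 0.80). By reads the Ikbke ratio of 2.24 (1.91 to 2.64) was above 2. Tab1 was also higher, at 16.8 and 25.4 FPKM (log2 ratio 0.57), and Tbk1 was at 4.81 FPKM in both libraries. Tab1 and Tbk1 were named after their values were seen.

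**Figure D3:**
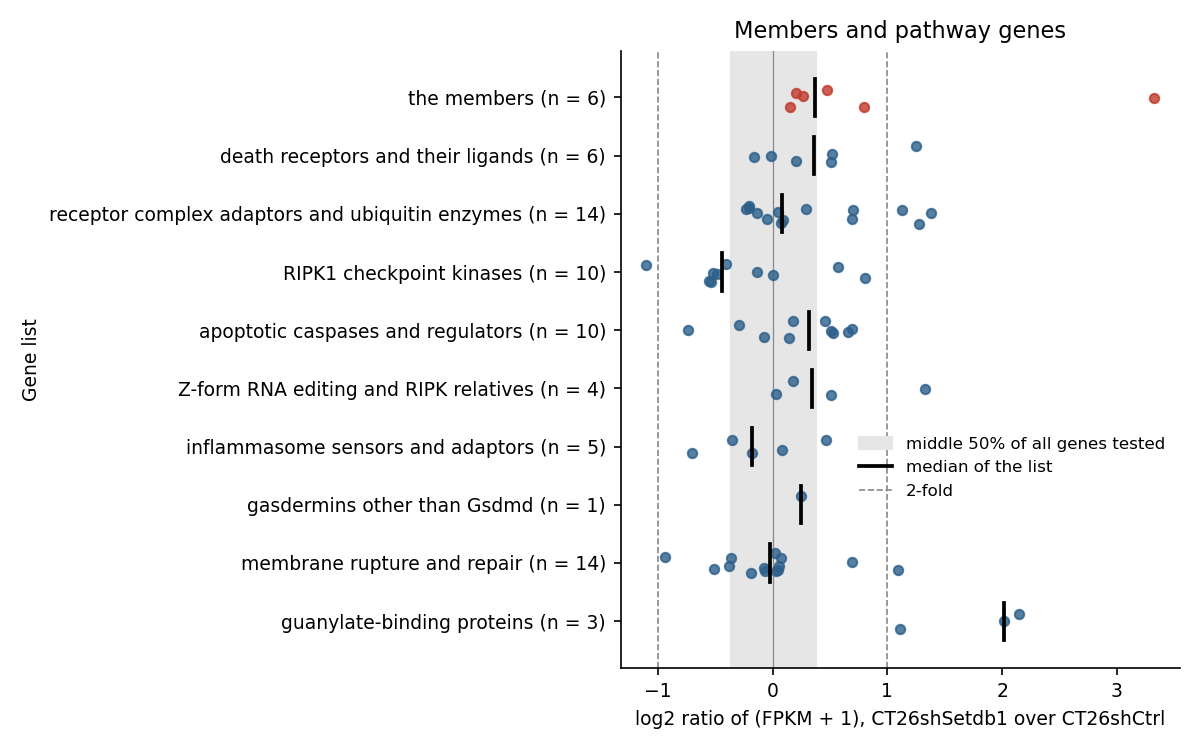
Log2 ratio of (FPKM + 1), CT26shSetdb1 over CT26shCtrl, of each gene at 1 FPKM or more, by list, with the members in red and black bars at medians. The grey band holds the middle 50% of all genes tested (-0.36 to 0.38), dashed lines mark 2-fold, and the list of checkpoint kinases has the lowest median, -0.44.

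Among 10 apoptotic caspases and regulators, none passed 2-fold and the median log2 ratio was 0.32. The ratios ran from -0.74 for Bid, the BCL2 family protein that caspase-8 cleaves, to 0.69 for Casp6, an executioner caspase that had 2.53 FPKM in CT26shCtrl and 4.70 FPKM in CT26shSetdb1. Of the annotated exon bases of Bid, 17.7% are shared with Bcl2l13. Ripk2, a kinase of the same family as RIPK1 that acts in bacterial sensing, was the lowest of the 4 genes at 1 FPKM in the list that holds Adar, at 2.69 and 2.77 FPKM (log2 ratio 0.03).

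Few inflammasome genes were expressed. Of 15, 5 reached 1 FPKM and none of the 5 passed 2-fold. Aim2, a sensor of cytosolic DNA, was highest at 1.91 FPKM in CT26shCtrl and 3.02 FPKM in CT26shSetdb1 (log2 ratio 0.47), and Nek7, a partner of NLRP3, was lowest at 5.23 and 2.83 FPKM (log2 ratio -0.70). Pycard, named after its values were seen, encodes ASC, the adaptor that joins most sensors to caspase-1. It had 0 reads in CT26shCtrl and 1 read in CT26shSetdb1, and 12.8% of its exon bases are shared with Gm45205. The cytokine genes whose products these proteases process or release, Il1a, Il1b, Il18 and Il33, had 0 reads in CT26shCtrl and 2 reads in all in CT26shSetdb1.

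Of 9 gasdermin family genes other than Gsdmd, only Gsdme reached 1 FPKM. Gsdme, whose product caspase-3 can cleave, had 2.19 FPKM (523 reads) in CT26shCtrl and 2.79 FPKM (667 reads) in CT26shSetdb1, a log2 ratio of 0.25. The other 8 had 4 reads and 1 read in all. Downstream of the pores, Ninj1 encodes the protein that ruptures the plasma membrane of dying cells. It had 51.4 FPKM in CT26shCtrl and 111 FPKM in CT26shSetdb1, a log2 ratio of 1.10, and its reads stood at a ratio of 2.09 (1.97 to 2.22). It was the 1 of 14 rupture and repair genes past 2-fold on the (FPKM + 1) scale. Vps4b, an ATPase of the ESCRT machinery that repairs membranes, was lowest at 3.78 and 1.49 FPKM (log2 ratio -0.94). In reads, the Vps4b ratio was 0.382 (0.329 to 0.443), so it was past 2-fold lower without the added 1.

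Guanylate-binding proteins expose bacterial lipopolysaccharide to caspase-11 and are known to be induced by interferon. Of the 5 examined, 3 reached 1 FPKM, Gbp3 and Gbp7 in the knockdown library alone, so the filter itself tilts this count upwards. All 3 were past 2-fold higher, as were 6.81% of all genes tested. Of the annotated exon bases of Gbp7, 11.3% are shared with Gm43802. Gbp2 had 1.78 FPKM in CT26shCtrl and 11.3 FPKM in CT26shSetdb1, Gbp3 had 0.180 and 3.76 FPKM, and Gbp7 had 0.266 and 1.73 FPKM. Their levels in CT26shSetdb1 were above that of Casp4, at 0.245 FPKM.

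Zbp1, Casp1 and Casp4 are also known from leukocytes, so leukocyte markers are given beside them. Of 10 leukocyte and macrophage markers, 2 reached 1 FPKM, Cd68 at 10.4 FPKM in CT26shCtrl and 100.2 FPKM in CT26shSetdb1 and Cd14 at 21.7 and 41.3 FPKM. The summed level of the list, made up mostly of Cd68 and Cd14, was 33.5 and 142.6 FPKM. The other 8 markers had 47 reads in all in CT26shCtrl and 34 in CT26shSetdb1. The defining markers Adgre1, Itgam and Cd3e had 0 reads in both libraries, but 68.7% of the exon bases of Itgam are shared with Gm49368, where reads may not have been assigned. Ptprc had 0 and 4 reads, Lyz2 had 23 and 21, Spi1 had 23 and 9, and Csf1r had 1 and 0. The 3 endothelial markers had 0 reads. Of 5 fibroblast markers, 3 reached 1 FPKM, and they did not share a direction. Col1a1 had 32.1 FPKM in CT26shCtrl and 24.0 FPKM in CT26shSetdb1, and Col1a2 had 140 and 94.1 FPKM. Pdgfra had 0.501 and 1.77 FPKM, so it reached 1 FPKM in the knockdown library alone. The list, made up mostly of Col1a2, summed to 172 and 120 FPKM. In bulk RNA, fewer cells of a type and less RNA per cell cannot be told apart.

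The nearest protein-coding genes at 1 FPKM on each side of the 8 genes were then read. Among 14 such neighbours that are not themselves members, 0 passed 2-fold on the (FPKM + 1) scale in either direction. Of all genes tested, 6.81% were past it upwards and 4.85% downwards, so few would be looked for among 14. Their log2 ratios ran from -0.93 to 0.77 with a median of 0.07. Some lie far away, as Msantd4 at 911647 bases and Dcun1d5 at 1877255 bases from Casp1. Pmepa1, which starts 5535 bases after Zbp1, had 6.94 FPKM in CT26shCtrl and 3.77 FPKM in CT26shSetdb1, a log2 ratio of -0.74. On the other side of Zbp1, at 171878 bases, Rbm38 had a log2 ratio of -0.05. The neighbours of Zbp1 were thus level or lower in the library in which Zbp1 was higher. Around Ripk3, Nop9 at 29495 bases had 23.7 and 21.6 FPKM and Khnyn at 96082 bases had 5.47 and 9.99 FPKM. Genes below 1 FPKM that lie nearer were passed over by this choice. Next to Ripk1, Bphl at 450 bases had 6.34 and 2.86 FPKM, the lowest ratio of the 14 at -0.93, which is past 2-fold in FPKM itself but not with 1 added.

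**Figure D4:**
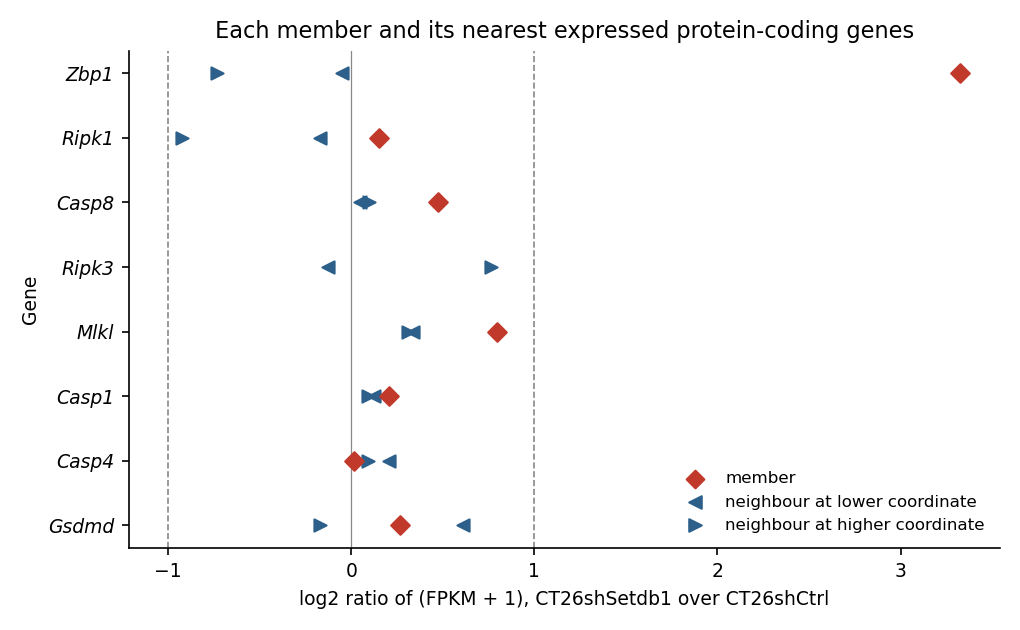
Log2 ratio of (FPKM + 1), CT26shSetdb1 over CT26shCtrl, of each member (diamonds) and of the nearest protein-coding gene at 1 FPKM or more at lower and higher coordinates (triangles), with dashed lines at 2-fold. Ripk3 has no diamond because it had 0 reads, and the neighbours lie between -0.93 and 0.77 apart from Casp1, which is also a member and the neighbour of Casp4.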

How the data were processed

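RNA of CT26 cells was sequenced in 1 library per group. Per the file headers, the deposited values are FPKM, given by the authors for 54680 loci with the length and position of each gene model. CASAVA, HISAT2, featureCounts 1.5.0-p3 and GRCm38 are named in the submitters' processing notes. The strand setting is not given in the sources used here.

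FPKM times length was a whole multiple of 1 step for 100% of the values above 0 (tolerance 0.001 reads), with 1 depth, 18731117 reads, common to both libraries. Reads and 95% exact binomial (Clopper-Pearson) intervals on their ratio, over library totals, came from this. Ratios are log2 of (FPKM + 1), and the 2-fold threshold was applied to the 10671 genes that reached 1 FPKM in either library. With 1 library per group there is no test between conditions. The fold rule and the binomial alternative were tested on simulated data.

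Members, lists and tests were chosen with earlier results of these data known. The text names all members, Setdb1, genes of each list at 2-fold or more, the highest and lowest of each list, and the nearest expressed protein-coding neighbours. Alternatives were another pseudocount, other filters, 3 scalings, CPM, other thresholds, protein-coding genes only, a binomial test and means. Promoters are from RefSeq (GRCm38.p6). Scripts ran in Python 3.11.15 with scipy 1.17.1 for intervals and tests, statsmodels 0.14.6 for adjustment, and pandas 2.3.3, numpy 2.4.6 and matplotlib 3.10.9.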

Additional observations from a re-analysis of the deposited data

How the results depend on the processing

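Of the alternative values of the 8 genes' log2 ratios, 38 stayed within counting error, 2 moved and 0 changed sign. The 38 include those of Ripk3, which were fixed at 0 because it had no reads. Both that moved were those of Zbp1, which was at 4.23 when the pseudocount was 0.1 and at 3.94 as log2(CPM + 1), as smaller pseudocounts make it. The lowest Zbp1 value was 3.28, under upper-quartile scaling. Of the alternative values of the counts and medians, 19 were classed as moved, those at other thresholds among them. The other 55 were classed as the same, but not all of them equalled the main value. On log2(CPM + 1), 742 of all genes were lower, against 518 in the main setting. The filter at 5 FPKM left 524 of all genes higher, against 727. With a pseudocount of 0.1, 1134 genes were higher and 870 lower, and 2 pathway genes were lower, as also on log2(CPM + 1). At 1.5-fold, 2 members, 12 pathway genes and 1804 of all genes were higher, and 4 pathway genes and 1523 of all genes lower. At 4-fold, 0 pathway genes were higher and 0 lower, with 116 and 56 of all genes. The exact binomial test, two-sided with Benjamini-Hochberg adjustment, compares the libraries and not the conditions. It called 4 members higher (34.7% of all genes tested were, 3699, and 4286 were lower), with 24 pathway genes higher and 21 lower. The mean of the 6 members was 0.87, moved by Zbp1. The filter at 5 FPKM gave a median of 0.63 over the members left, Zbp1, Mlkl, Casp8 and Gsdmd. Zbp1 and Casp8 passed it through the knockdown library alone, so the filter itself tilts this median upwards. Depth limits Casp1 and Casp4, with 44 and 16 reads in CT26shCtrl. No paired analysis was possible because there was 1 library a group, so none could be left out either.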
